A study of Phyllostachys violascens with 16 samples.

Results

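PH02Gene51458 and PH02Gene12145 are 2 Lei bamboo genes described as transcription factor bHLH35-like, out of 50936 genes measured. They were chosen by their measured fall, with 0 or nearly 0 FPKM in shoots stored for 2 days, against well over 10 FPKM in every freshly harvested library. Their levels against 0d are therefore given as a description and not tested. FPKM scales sequenced fragments by gene length and by library size, so it can be compared between genes of different length. The gene descriptions are those of the best database hit and name the closest described protein, not a proven function of the bamboo gene. No sequence of either gene was used here.

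The basic helix-loop-helix (bHLH) proteins are a large family of plant transcription factors. The basic region contacts DNA, mostly at E-box elements, and the helix-loop-helix part pairs one bHLH protein with another, so that the partner shapes which genes are bound. A bHLH35 protein of the poplar Populus euphratica has been linked with drought tolerance when made in Arabidopsis. Other members of the family are known from Arabidopsis as MYC2, which carries out much of the jasmonate response, and as ICE1 and its relative SCREAM2, which act upstream of cold-response factors and in the making of stomata.

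Total RNA from the middle segment, about 10 cm long, of Phyllostachys violascens spring shoots 30 to 40 cm high was sequenced at 4 times. Groups 0d, 2d, 6d and 20d hold 4 libraries each, called biological repeats by the labels; a library pooled 6 shoots, and 30 shoots were kept per repeat. All groups share one treatment, storage at 4 °C in polyethylene bags at 60 to 70% humidity, with 0d as its starting point. Shoots held at another temperature or left unpacked were not analysed here, so cold, packing and time since harvest cannot be told apart. In whole segments of this kind, fewer cells of a type and less RNA per cell cannot be told apart either.

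Library totals ran from 51.7 to 64.9 M (mega) deposited counts and the ranges of the 4 groups overlapped. Genes described as of the KNOTTED type, taken here as markers of shoot meristem, summed to 386 to 397 FPKM at 0d and 468 to 469 at 2d. They summed to 466 to 472 FPKM at 6d and 425 to 432 at 20d. Genes of this description were therefore present at every time. Whether each of them marks meristem was not tested, and their sum does not show that the make-up of the segment stayed the same. Markers of other cells moved between the times, as given below. Of the 19 such genes, 2 stood at 0 in each group.

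PH02Gene51458 lies on the plus strand of scaffold 14996, from 181 to 1386, and is the 1 gene that the deposited table lists on that scaffold. It had 39.6, 46.6, 43.8 and 44.9 FPKM in the 4 libraries of 0d. At 2d it had 0 counts in all 4 libraries. At 6d it had 0.249, 0.0993, 0 and 0 FPKM, and at 20d 0.133, 0, 0.0907 and 0 FPKM. Every stored library was therefore below every 0d library, and the 3 stored times overlapped each other at 0 or close to it. The mean was 43.7 ± 3.01 FPKM at 0d, then 0 at 2d, 0.0871 ± 0.118 at 6d and lastly 0.056 ± 0.0669 at 20d (SD, n = 4 each).

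PH02Gene12145 lies on the minus strand of scaffold 24, from 17563675 to 17565299. It had 60.5, 56.5, 57.1 and 51.3 FPKM at 0d. At 2d it had 0.0539 FPKM in replicate 1 and 0 in the others. It had 0.532, 0.290, 0.379 and 0.247 FPKM at 6d, and 0.208, 0.0739, 0 and 0.0748 FPKM at 20d. Here too every stored library was below every 0d library, but the 6d libraries all stood above those of 2d and of 20d, which overlapped each other. The mean was 56.4 ± 3.77 FPKM at 0d, then 0.0135 ± 0.0269 at 2d, 0.362 ± 0.126 at 6d and lastly 0.0893 ± 0.0869 at 20d (SD, n = 4 each). Counts above 0 were found for PH02Gene12145 in 8 of the 12 stored libraries and for PH02Gene51458 in 4 of the 12. At 6d and again at 20d, replicate 1 held the highest value of both genes.

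**Figure D1:**
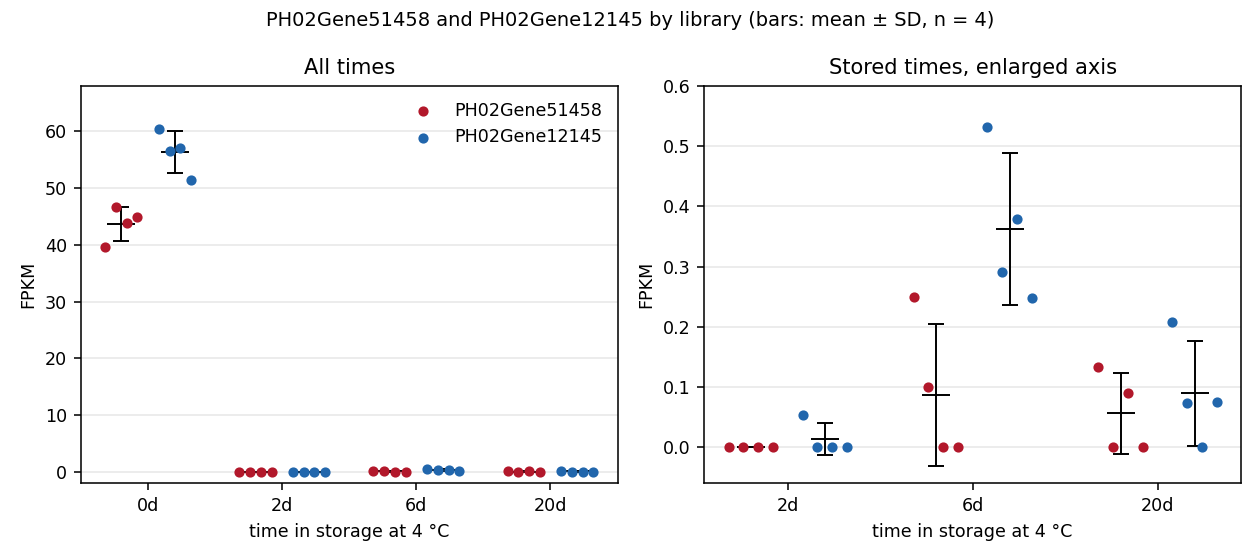
FPKM (vertical axis) of PH02Gene51458 and PH02Gene12145 by storage time, 1 point per library, with mean ± SD of n = 4 as black bars; the right panel repeats the stored times on an enlarged axis. The 0d libraries sit between 39.6 and 60.5 FPKM, and no stored library is above 0.532 FPKM.

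The size of the difference was limited by how few fragments the stored libraries held. The number of counts that 1 fragment adds is not given in the sources used here. It was taken as 4, the most frequent count above 0, although 35.2% of counts from 1 to 19 are multiples of 4 and the others are not. A group at 0 was set to a floor of 3 fragments, or 12 counts for the whole group, which makes its ratio a lower bound. PH02Gene51458 had 0 counts at 2d, against 10315 counts at 0d. With the floor it was at least 787-fold lower per total count, and its exact 95% interval started at 640-fold. It had 19 counts at 6d and 13 at 20d, which put it 523-fold lower at 6d (exact 95% Clopper-Pearson interval 213 to 1531) and 773-fold lower at 20d (245 to 2306). The 6d and 20d intervals of this gene cover each other's values. PH02Gene12145 had 4 counts at 2d, 108 at 6d and 28 at 20d, against 17785 counts at 0d. It was 4070-fold lower at 2d (730.1 to 160794), 159-fold lower at 6d (109 to 241) and 619-fold lower at 20d (299.9 to 1539). With 1 count per fragment instead, the bound for PH02Gene51458 at 2d would be 3148-fold and the interval for PH02Gene12145 at 2d would run from 1589 to 14940, so taking 4 gives the wider intervals and the smaller bound. The intervals and floors cover counting error only, since reads without molecular identifiers are not independent molecules.

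Single libraries moved several of these ratios. Without 2d replicate 1, which held the 1 fragment of PH02Gene12145, that gene was at least 1029-fold lower at 2d with the floor. Without 20d replicate 1 it was 1039-fold lower at 20d. PH02Gene51458 was 1286-fold lower at 6d without 6d replicate 1, which held 13 of its 19 counts, and 1305-fold lower at 20d without 20d replicate 1.

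At harvest both genes were among the most abundant bHLH transcripts. Both were chosen with well over 10 FPKM in every 0d library, which favoured a high rank, so the ranks are a description. By mean FPKM at 0d PH02Gene12145 ranked 4 and PH02Gene51458 ranked 6 among the 206 genes described as bHLH factors. The genes above them were PH02Gene15574 (bHLH107, 116 FPKM), PH02Gene22432 (bHLH13, 84.1 FPKM) and PH02Gene01251 (BIM2, 56.8 FPKM), with the ICE1 gene PH02Gene07293 at 46.3 FPKM between the pair. PH02Gene01251 and PH02Gene12145 differed by less than the SD of PH02Gene12145 between libraries, and PH02Gene07293 and PH02Gene51458 by less than the SD of PH02Gene51458. Among all 50936 genes the ranks were 1908 and 2703.

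PH02Gene12145 was higher than PH02Gene51458 in each of the 4 libraries of 0d. The ratio of FPKM was 1.53, 1.21, 1.30 and 1.14 in replicates 1 to 4, a mean of 1.30 ± 0.168 (SD, n = 4). An exact two-sided sign-flip permutation test gave the smallest p that 4 libraries allow, which is above 0.05, so the test could not pass. The library with the highest PH02Gene12145 held the lowest PH02Gene51458, and the sum of both stayed between 96.3 and 103 FPKM. How reads that fit more than one bHLH35-like gene were assigned is not given in the sources used here, so the split between the genes is uncertain.

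The stored libraries were then compared with each other. Low values at 2d helped to choose the genes, so a level above that of 2d was favoured by the choice, and differences from 2d are described without a test. PH02Gene12145 was higher in every 6d library than in every 2d library, and in counts its level at 6d was 25.7 times that at 2d (exact 95% interval 4.23 to 1051). Its level at 20d was 6.58 times that at 2d, with overlapping libraries and an interval (0.845 to 297) that includes 1. PH02Gene51458 had no count at 2d to set a ratio against, and the intervals of its level at 6d and at 20d over that at 2d reach down to 0.871 and 0.388, so these counts do not show that it was higher.

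The difference between 20d and 6d compares neither 0d nor 2d and was tested. edgeR's quasi-likelihood test was fitted over the 24944 genes with a mean of at least 1 FPKM, and calls needed both an adjusted p (Benjamini-Hochberg) below 0.05 and a log2 change of 1 or more in size. PH02Gene12145 was called lower at 20d than at 6d, with a log2 change of -1.82 (SE 0.52, edgeR adjusted p = 0.00563), and 14.2% of all tested genes were called lower. In counts the level at 6d was 3.90 times that at 20d (interval 1.66 to 10.6), and the 4 libraries of each time did not overlap. PH02Gene51458 was not called at 20d against 6d (-0.43, SE 1.18, edgeR adjusted p = 0.755), and the interval of its 6d level over its 20d level ran from 0.272 to 6.37. All of these levels are below 1 FPKM and below 1% of the mean at 0d, so both genes passed the filter through their level at 0d. How reads shared between bHLH35-like genes were assigned is not given, so which of these genes the few counts came from is uncertain.

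Descriptions naming bHLH35 were found on 8 genes in all, 3 of them on scaffold 24, 2 on scaffold 23, and 1 each on scaffolds 14996, 18360 and 20. PH02Gene12146, next to PH02Gene12145 on the same strand at a distance of 7.897 kb (scaffold 24, 17553297 to 17555777), had 18.7, 17.9, 17.7 and 19.4 FPKM at 0d. In the stored libraries it ranged from 0 to 0.184 FPKM and had counts in 7 of the 12. It fell by 9.22 at 2d on the log2 scale (SE 0.69, edgeR adjusted p = 2.05e-08), it fell by 7.44 at 6d (SE 0.58), and it fell by 7.37 at 20d (SE 0.58). It was tested because its level at 0d carried it past the filter of 1 FPKM. With no filter, over 40101 genes, the change at 2d was -9.15 (SE 0.68, edgeR adjusted p = 2.72e-08). All 8 of its 2d counts were in 2d replicate 3, and with 1 library left out the change at 2d ran from -13.4 to -8.84. Against 0d, 18.1% of all tested genes were called lower at 2d, 21.6% at 6d and 24.5% at 20d. Its stored times overlapped and no difference between them was called, the adjusted p lying between 0.174 and 0.945. At 20d against 2d it was called without 2d replicate 3, with a log2 change of 6.06 against a group then at 0; 16.8% of all tested genes were called higher at 20d than at 2d.

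PH02Gene13165 (scaffold 23, 57236978 to 57241189) was, like PH02Gene12145, higher at 6d than at 2d and 20d. It had 26.0, 24.4, 25.4 and 23.1 FPKM at 0d and 0.0246, 0, 0.138 and 0.0673 FPKM at 2d. It had 2.81, 2.62, 2.95 and 2.30 FPKM at 6d, and 0.220, 0.224, 0.220 and 0.178 FPKM at 20d. The 4 times did not overlap, and their order was 0d, 6d, 20d and 2d from high to low. Against 0d the log2 change was -8.33 at 2d (SE 0.26, edgeR adjusted p = 1.82e-14), -3.04 at 6d (SE 0.16) and -6.53 at 20d (SE 0.21). It rose by 5.29 at 6d against 2d (SE 0.28, edgeR adjusted p = 5.53e-11) and fell by 3.50 at 20d against 6d (SE 0.22, adjusted p = 4.54e-10). Of all tested genes 6.94% were called higher at 6d than at 2d. The 6d mean of 2.67 ± 0.28 FPKM stood beside 0.362 ± 0.126 FPKM for PH02Gene12145 (SD, n = 4 each).

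The other bHLH35-described genes were too low to be tested. PH02Gene51331, the 1 gene listed on scaffold 18360 (172 to 2242), had 4.35, 2.78, 3.80 and 4.57 FPKM at 0d and 0 counts in all 12 stored libraries. It was at least 82.2-fold lower at 2d, 86.4-fold at 6d and 87.4-fold at 20d. PH02Gene12148, 81.5 kb beyond PH02Gene12146, averaged 1.21 ± 0.268 FPKM at 0d (SD, n = 4), and its highest value in a stored library was 0.158 FPKM. PH02Gene13166 had at most 0.148 FPKM at 0d and 0 counts in every stored library, close to the floor at every time. PH02Gene49907 on scaffold 20 behaved otherwise, with mean FPKM of 0.0895 at 0d, then 0.256 at 2d, 0.245 at 6d and lastly 0.0172 at 20d and overlapping libraries throughout. Of the 8 genes, 4 passed the filter, and these passed through their level at 0d, so their number is not evidence of a shared fall.

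**Figure D2:**
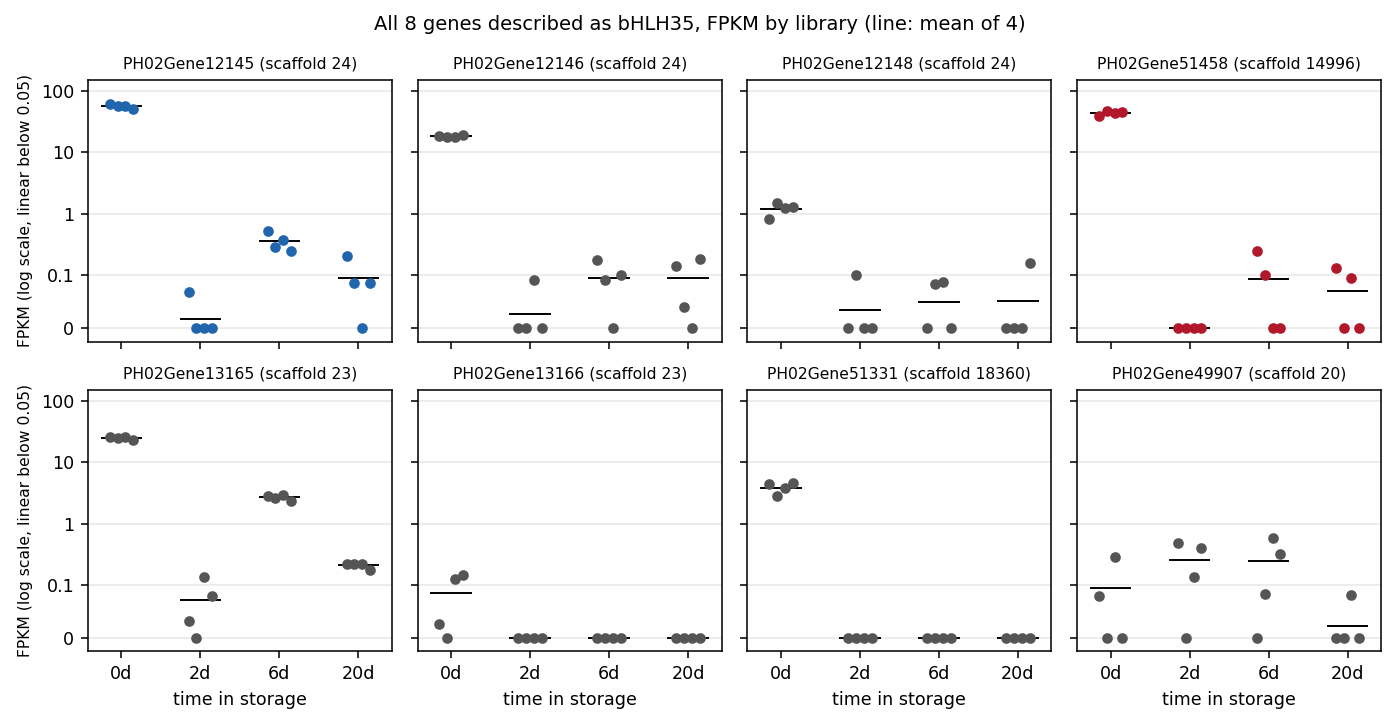
FPKM by library for the 8 genes described as bHLH35, 1 panel per gene, on a log scale that is linear below 0.05 FPKM; the horizontal line is the mean of n = 4. PH02Gene13165 and PH02Gene12145 stand higher at 6d than at 2d and 20d, and PH02Gene51331 is at 0 in all stored libraries.

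The nearest genes to PH02Gene12145 that had counts were also called lower at 2d than at 0d, at differing levels and by differing amounts. PH02Gene12147, an uncharacterized gene between PH02Gene12146 and PH02Gene12148, stood at 0 in all 16 libraries and could show no fall. On the other side, 6.312 kb away, the lectin receptor kinase gene PH02Gene12144, of a class thought to sense signals at the cell surface, had 0.549 ± 0.051 FPKM at 2d and 2.63 ± 0.406 FPKM at 0d (SD, n = 4 each). Its change was -1.98 (SE 0.26, edgeR adjusted p = 2.10e-07). The next gene, PH02Gene12143, a hypothetical protein 118 kb further on, had 13.5 ± 0.920 FPKM at 2d and 221 ± 8.29 FPKM at 0d, a change of -3.79 (SE 0.05, edgeR adjusted p = 1.51e-22). At 2d against 0d, 18.1% of all tested genes were called lower and 31.1% were called in either direction.

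PH02Gene12143 also differed from PH02Gene12145 in its later course, with 18.7 ± 0.650 FPKM at 6d and 0.193 ± 0.0579 FPKM at 20d. Scaffolds 24 and 23 carried related gene orders around their bHLH35-like genes, in a window of 10 genes to each side that was set after the values were seen. Of 24 genes in the window on scaffold 24, 9 (37.5%) shared a description with the window on scaffold 23, and of 22 genes there 7 (31.8%) did, the bHLH35-like genes included. The others were metal tolerance protein C4, a GlcAT14A-like glucuronosyltransferase, G-type lectin receptor kinases SD2-5, a tyrosine tRNA ligase and phototropin-2-like, in reversed order. Shared descriptions describe the annotation, and sequences were not compared.

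**Figure D3:**
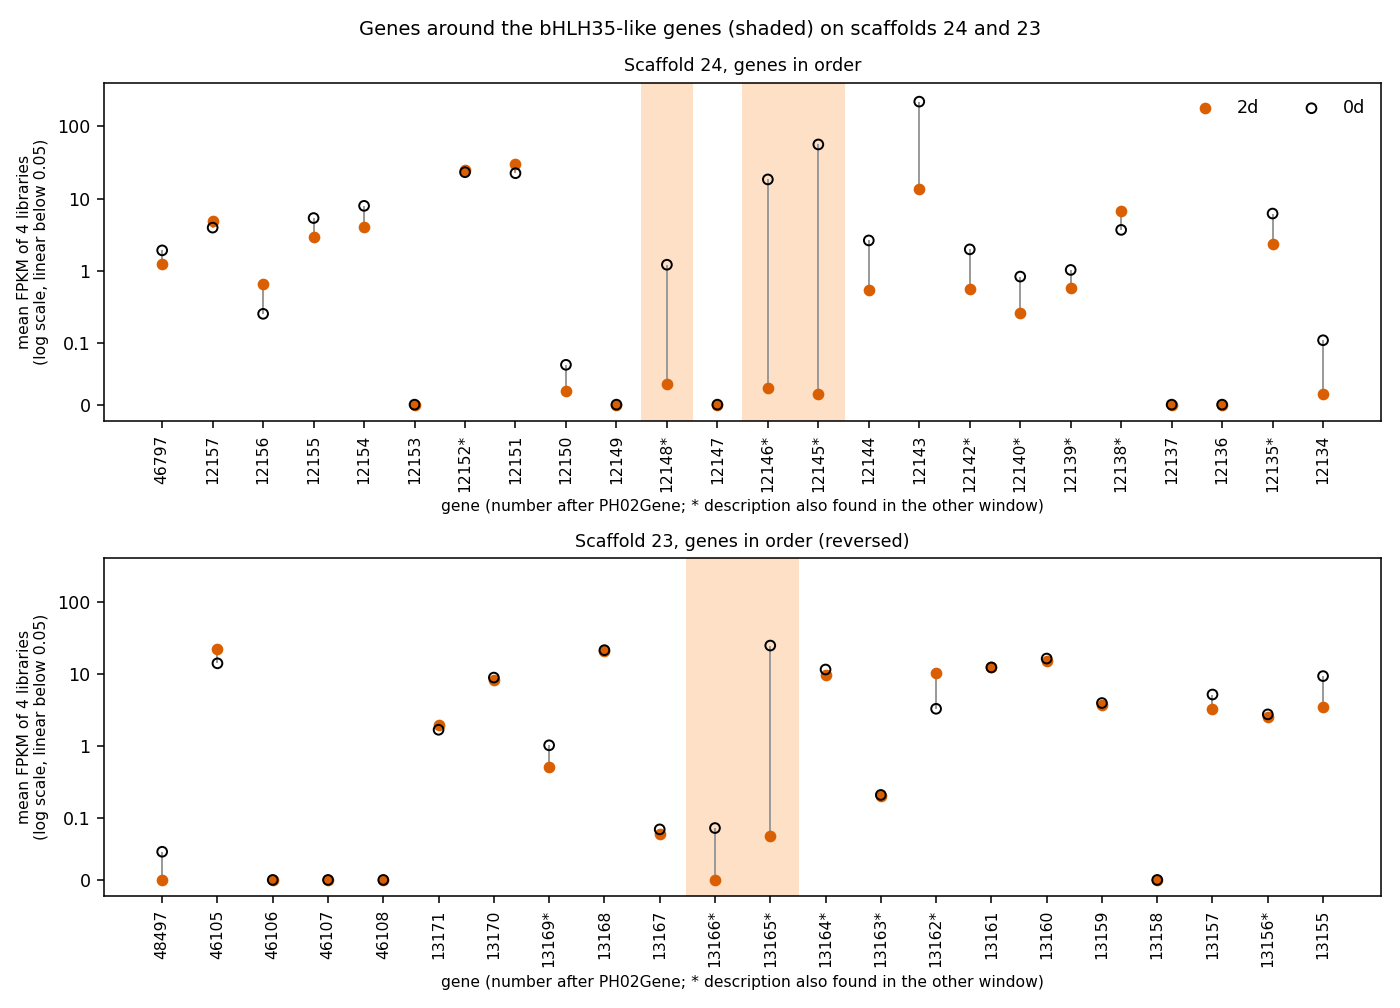
Mean FPKM (vertical axis, log scale, linear below 0.05; n = 4) at 2d (filled) and 0d (open) of the genes in order along scaffold 24 and, reversed, scaffold 23, with bHLH35-like genes shaded. PH02Gene12145, PH02Gene12146 and PH02Gene13165 are below 0.1 FPKM at 2d, and no other gene above 10 FPKM at 0d in either window is below 10 FPKM at 2d except PH02Gene13164 at 9.67 FPKM.

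Across the bHLH family the fall of the bHLH35-like genes was not the common pattern. Of 206 listed genes 87 were tested, and at 2d against 0d 19 of them (21.8%) were called higher and 23 (26.4%) lower, the chosen pair among them, with a median log2 change of -0.06. Of all tested genes 13.1% were called higher and 18.1% lower, with a median of -0.0035. At 6d 19 family genes were higher and 24 lower, beside 16.8% higher and 21.6% lower of all tested genes. At 20d the family had 23 higher and 26 lower, beside 19.5% and 24.5% of all tested genes. Scaling by total counts instead moved the median of all genes to -0.26 at 2d, -0.21 at 6d and -0.30 at 20d, and the family split to 15 higher and 28 lower at 2d and to 19 and 33 at 20d.

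By fitted fall among the 87, PH02Gene12146 ranked 3 and PH02Gene13165 ranked 4 at 2d, behind the chosen pair. At 6d PH02Gene12146 ranked 2 and PH02Gene13165 ranked 9, and at 20d they ranked 4 and 6. Leaving out the chosen pair, 35 family genes had at least 10 FPKM at 0d, and 3 of them (8.57%) were below 1% of that level at 2d. These were PH02Gene12146, PH02Gene13165 and the bHLH18 gene PH02Gene12445, named after its values were seen, and PH02Gene12146 alone was below 1% at every stored time. Among all 12056 such genes without the pair, 50 (0.415%) were below 1% of their 0d level at 2d and 18 (0.149%) at every stored time. The cuts of 10 FPKM and 1% follow the pattern by which the pair was chosen. PH02Gene12146 and PH02Gene13165 are themselves described as bHLH35-like, and reads shared with the pair could not be traced. These shares are therefore a description and not evidence of a fall across the family.

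**Figure D4:**
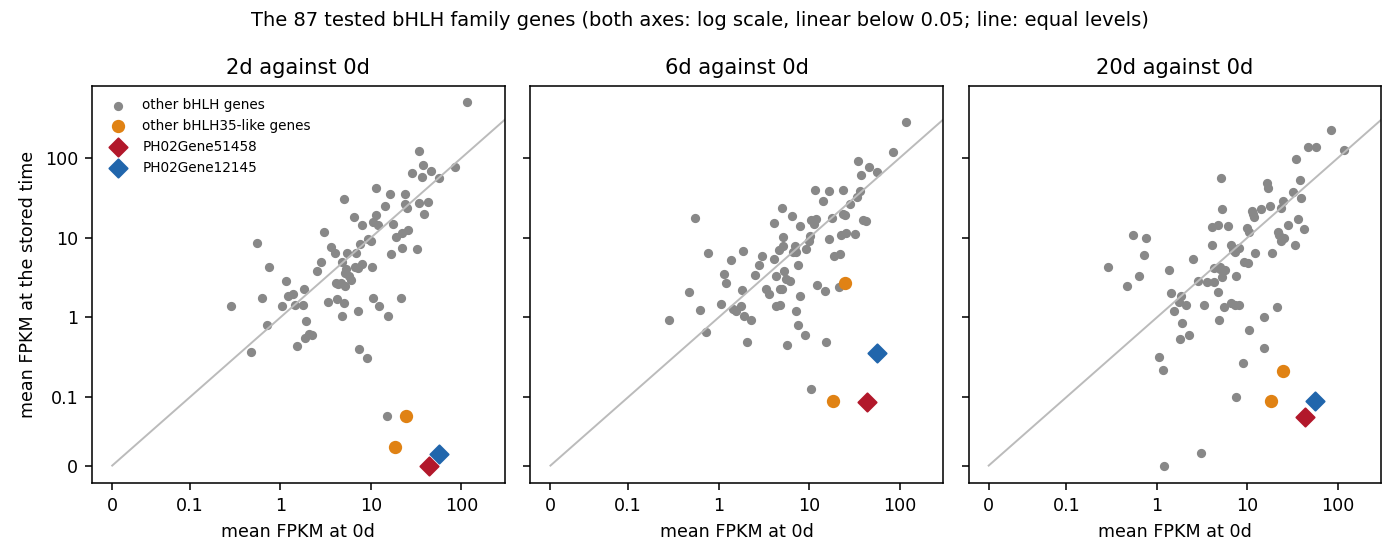
Mean FPKM at each stored time (vertical axis) against mean FPKM at 0d (horizontal axis), n = 4 libraries each, for the 87 tested bHLH family genes, on log scales that are linear below 0.05; the line marks equal levels. PH02Gene51458, PH02Gene12145 and the other tested bHLH35-like genes lie far below the line, PH02Gene13165 being the nearest of them to it at 6d. The other family genes lie on both sides of it. Some of these also lie far below it, such as PH02Gene12445 at 2d (15.1 FPKM at 0d, 0.0576 at 2d) and PH02Gene27370 at 6d (10.5 FPKM at 0d, 0.128 at 6d).

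Further named genes of the family moved both ways at 2d. The MYC2 gene PH02Gene46496 had 1.75 ± 0.240 FPKM at 2d and 21.5 ± 0.596 FPKM at 0d (SD, n = 4 each), a change of -3.37 (SE 0.09, edgeR adjusted p = 2.65e-21). The bHLH107 gene PH02Gene15574, the most abundant of the family at harvest, rose to 496 ± 6.64 FPKM at 2d, against 116 ± 1.41 FPKM at 0d (2.34, SE 0.02, edgeR adjusted p = 1.81e-30). PH02Gene04678 (bHLH76-like) rose by 4.23, PH02Gene25730 (bHLH77-like) by 2.85 and PH02Gene41777 (bHLH94) by 2.76 on the log2 scale.

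Genes with well-known relatives in cold and jasmonate responses differed in direction. The ICE1 gene PH02Gene07293 had 67.7 ± 3.96 FPKM at 2d and 46.3 ± 1.52 FPKM at 0d (SD, n = 4 each), and its log2 change of 0.80 was below the size needed for a call. It was called higher at 20d, with 138 ± 4.06 FPKM (1.89, SE 0.04, edgeR adjusted p = 1.89e-24). The ICE1 gene PH02Gene12072 had 6.51 ± 0.569 FPKM at 2d and 4.06 ± 0.403 FPKM at 0d, with a change of 0.93 that was not called either. It was called higher at 6d (2.08, SE 0.08) and at 20d (2.05, SE 0.08), with 15.3 ± 1.31 and 13.6 ± 0.691 FPKM. A further MYC2 gene, PH02Gene33961, had 12.6 ± 0.553 FPKM at 2d and 25.6 ± 1.03 FPKM at 0d and was not called (-0.77, SE 0.05). It was called lower at 6d (-1.004, SE 0.05) and at 20d (-1.06, SE 0.05), at the edge of the size needed, with 11.3 ± 0.812 and 9.87 ± 0.216 FPKM. The SCREAM2 gene PH02Gene33649 had 3.004 ± 0.795 FPKM at 0d and 0 counts in all stored libraries, and its relative PH02Gene37952 had 0.0644 ± 0.0783 FPKM at 2d and 1.15 ± 0.211 FPKM at 0d; neither was tested. The remaining 8 genes described as MYC2 or MYC2-like stayed below 0.1 mean FPKM in every group.

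Jasmonate genes, 119 by description from lipoxygenases to the TIFY repressors, were read beside the family because MYC2 carries out much of the jasmonate response. The list takes every gene described as a lipoxygenase, those of the 9S type included, whether or not it acts in making jasmonate. Of the 60 with a test, 8 (13.3%) rose and 26 (43.3%) fell at 2d (median log2 change -0.31), beside 13.1% and 18.1% of all tested genes. At 6d 3 (5%) rose and 30 (50%) fell (median -1.004), beside 16.8% and 21.6% of all tested genes. At 20d 5 (8.33%) rose and 33 (55%) fell (median -1.16), beside 19.5% and 24.5%. The medians of all tested genes were -0.02 at 6d and 0.02 at 20d. At 2d the repressor gene PH02Gene09509 (TIFY 11d) fell by 2.99, PH02Gene03055 (TIFY 10c-like) fell by 1.47, and PH02Gene18247, a 9S-lipoxygenase gene, rose by 1.34 on the log2 scale. Of the 39 jasmonate genes with at least 10 FPKM at 0d, 4 (10.3%) were below 1% of it at 2d and 0 at every stored time. Of all such genes without the pair these shares were 0.415% and 0.149%.

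Cold genes, 44 by description with DREB factors and dehydrins among them, were read beside the family because ICE1 acts upstream of cold-response factors in Arabidopsis. The list takes every gene described as a DREB factor or as cold-responsive, whether or not it lies downstream of ICE1. Of the 21 with a test, 6 (28.6%) rose and 5 (23.8%) fell at 2d (median 0.33), beside 13.1% and 18.1% of all tested genes. At 6d 7 (33.3%) rose and 3 (14.3%) fell (median 0.64), beside 16.8% and 21.6%. At 20d 7 (33.3%) rose and 1 (4.76%) fell (median 0.57), beside 19.5% and 24.5%. Scaled by total counts, 6 rose and 7 fell at 2d (median 0.076) and 6 rose and 3 fell at 20d (median 0.25). The DREB2C-like gene PH02Gene41094, whose Arabidopsis relatives act in stress responses, rose by 1.73 at 2d. Of the cold-responsive protein kinase 1 genes, PH02Gene46891 rose by 1.96 and PH02Gene21995 fell by 1.51. None of the 9 cold genes of at least 10 FPKM at 0d was below 1% of it at a stored time. Of all such genes without the pair 0.415% were at 2d, so 9 genes are too few to tell the cold list from all genes.

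The genes most like each member were found by the Pearson correlation of log2(FPKM + 1) over the 16 libraries, which share the same 4 groups, and the correlation is a description. The members had r = 0.998 with each other. For PH02Gene51458 the 5 most alike were a pEARLI1-like lipid transfer protein (PH02Gene20818), a farnesol/nerolidol synthase, which makes sesquiterpene alcohols (PH02Gene10447), PH02Gene12146, the subtilisin-like protease SBT1.7 (PH02Gene09501) and the proline-rich protein DC2.15 (PH02Gene17293). PH02Gene20818 and PH02Gene17293 had 0 at every stored time, against 14.05 and 9.78 FPKM at 0d.

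For PH02Gene12145 the 5 were the amino acid transporter AVT1I (PH02Gene34870), a heat shock protein of the 70 kDa class (PH02Gene20065), the cytochrome P450 71A1 (PH02Gene19833), a MALE DISCOVERER 2-like receptor kinase (PH02Gene17493) and a chlorophyll a/b binding protein (PH02Gene46210). PH02Gene34870 had 0 at 2d and 20d and 0.250 FPKM at 6d, against 18.2 FPKM at 0d. PH02Gene19833 had 0.188 FPKM at 2d, 0.409 at 6d and 0.225 at 20d, against 73.1 FPKM at 0d. With so large a step between 0d and the stored times, 213 and 210 of the 24942 other genes reached r of 0.99 with PH02Gene51458 and PH02Gene12145, so the leading 5 are close to many others.

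Markers of other cells also moved between the times. The 15 chlorophyll a-b binding genes, marking photosynthetic tissue, summed to 304 to 319 FPKM at 0d, then 13.3 to 13.8 at 2d, 14.5 to 17.0 at 6d and lastly 1.60 to 2.50 at 20d, with 3, 4, 4 and 6 of the 15 at 0 at these times. They were lowest at 20d. The lowest means of PH02Gene51458 and PH02Gene12145 were at 2d, which their choice favoured, and their 2d and 20d libraries overlapped. Genes of lignifying xylem (60, with 25 to 29 at 0) summed to 33.0 to 35.8 FPKM at 0d, then 10.8 to 13.0 at 2d, 21.0 to 23.2 at 6d and lastly 82.7 to 86.2 at 20d. Genes of phloem (6, with 2 at 0) summed to 37.0 to 38.6, 17.4 to 19.2, 17.4 to 19.9 and 23.8 to 25.4 FPKM in the same order. Both sums, like the chosen pair, were lower in every 2d library than in every 0d library. So were the sums for photosynthetic tissue and, given below, for epidermis and cuticle and for pollen or anther. The sums for shoot meristem and dividing cells were higher in every 2d library.

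Dividing cells (25 genes, with 7 to 10 at 0) gave 53.9 to 57.6 FPKM at 0d, 66.6 to 70.8 at 2d, 82.8 to 89.3 at 6d, and 46.1 to 49.6 at the end of storage. Epidermis and cuticle (80 genes, with 32 to 40 at 0) gave 52.3 to 55.7, 37.1 to 39.7, 41.4 to 46.7 and 94.3 to 100.2 FPKM. Genes named for pollen or anther (26, with 9 to 11 at 0), tissues that were not sampled and names that cell wall expansins also carry, gave 188 to 199, 151 to 158, 141 to 146 and 99.7 to 106 FPKM. The part of these shifts in the fall of PH02Gene51458 and PH02Gene12145 was not tested.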

How the data were processed

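RNA of 16 shoot libraries, 4 per storage time, was measured by Illumina sequencing, per the labels' protocols. The authors deposited 1 table of 50936 genes; per the file headers it holds FPKM, in which a 0 is written as 0.0001, and a count per gene and library. The deposited counts are estimated counts, not normalised: the most frequent count above 0 is 4 and the next is 8, and 35.2% of counts from 1 to 19 are multiples of 4. Not given in the sources used here are the aligner, counting tool, genome build and treatment of reads shared by several genes. All 16 pairs of value columns matched a library, and 0 other value columns were present. Gene descriptions come from the table, which has one for 49347 genes.

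The 2 genes, the lists and the rules for naming genes were chosen with earlier results of these data known. Lists and marker lists are patterns on the descriptions. Named genes were every gene described as bHLH35, 2 neighbours on each side, the 5 most alike with an informative description, and in the family the 4 largest called rises and falls at 2d with a mean of at least 5 FPKM and no overlap of libraries. In the jasmonate and cold lists they were the 3 called genes of lowest adjusted p at 2d. Family genes described as MYC2, ICE1 or SCREAM were named whatever their test gave.

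Genes with a mean of at least 1 FPKM were tested with edgeR 4.0.16 (R 4.3.3; TMM scaling, robust quasi-likelihood fit, 4 groups) and called where the adjusted p (Benjamini-Hochberg) was below 0.05 and the log2 change 1 or more in size. SE is an approximate standard error, the size of a log2 change divided by the square root of its quasi-likelihood F. A planned test of the 2 genes against 2d is not reported, because 2d values helped to choose them. The fit was tested on simulated data with known changes. All were smaller in size than the falls of PH02Gene12146 and PH02Gene13165 at 2d, so falls that large were not covered. Ratios use counts per library total, with exact 95% Clopper-Pearson intervals on fragments of 4 counts, rounded up in the lower group, and a floor of 3 fragments (scipy 1.17.1). Alternatives were DESeq2 1.42.0, limma 3.58.1 on log2(FPKM + 1), other pseudocounts, scalings and filters, counts divided by 4, fits of the 2 groups compared, a replicate block and each library left out. No pair of libraries of a group was identical. Chi-square per degree of freedom was 1.48 to 2.24 on counts divided by 4, which is above counting noise only if 1 fragment adds about 4 counts. That check cannot tell separate pools from repeated sequencing of 1 pool, so counting each library as 1 replicate rests on the labels. The libraries are labelled biological repeats but are pools of 6 shoots, so p-values measure the spread between pools. Per-gene depth is that of libraries of 51.7 to 64.9 M counts.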

Additional observations from a re-analysis of the deposited data

Results flagged for a closer look

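Among 124 groups of 4 library values of the named genes, 18 had 1 library far from the other 3. In 10 of the 18 the other 3 libraries were at 0, where any count above 0 stands apart; of the remaining 114 groups 8 stood out, and chance alone gives about 1 in 20. Of the bHLH35-like genes, PH02Gene12145 had 0.0539 FPKM in 2d replicate 1, PH02Gene12146 had 0.0822 FPKM in 2d replicate 3, and PH02Gene12148 had 0.103 FPKM in 2d replicate 2 and 0.158 FPKM in 20d replicate 4, while the other 3 libraries stood lower. PH02Gene49907 had 0.0688 FPKM in 20d replicate 3, and PH02Gene13165 had its lowest 20d value, 0.178 FPKM, in replicate 4.

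Among genes like the pair, PH02Gene10447 had 0.148 FPKM in 2d replicate 4, and PH02Gene20065 (0.541 FPKM in 20d replicate 3) and PH02Gene17493 (0.158 FPKM in 2d replicate 3) each had 1 low library. Low single libraries were also found for the DREB2C-like gene PH02Gene41094 (119 FPKM, 2d replicate 3), the ICE1 genes PH02Gene07293 (132 FPKM, 20d replicate 1) and PH02Gene12072 (3.46 FPKM, 0d replicate 3) and the MYC2 gene PH02Gene33961 (24.1 FPKM, 0d replicate 4). High single libraries were found for TIFY 10c-like PH02Gene03055 (275 FPKM, 0d replicate 3), the MYC2-described PH02Gene16164 (0.101 FPKM, 0d replicate 4), PH02Gene33077 (0.113 FPKM, 0d replicate 3) and PH02Gene21080 (0.0395 FPKM, 6d replicate 4), and SCREAM2 PH02Gene37952 (0.0270 FPKM, 6d replicate 4).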

How the results depend on the processing

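Depth limits the stored levels to a few fragments. Leaving out 1 library gave a lower bound of 564 to 813 for the fall of PH02Gene51458 at 2d, a bound that scales with the libraries counted. PH02Gene51458 at 20d against 6d was -1.15 to 0.83 on the log2 scale with 1 library left out, reversing to 0.83 without 6d replicate 1 and to 0.02 without 20d replicate 2. For PH02Gene12145 at 20d against 6d limma gave changes too small for a call, -0.32 on log2(FPKM + 1) and -0.075 on log2(FPKM + 5), a scale that understates changes below the pseudocount; with 1 library left out the change was -2.55 to -1.37. Fitted changes against 2d carry no test. For PH02Gene12145 at 6d edgeR gave 4.48 (4.04 to 7.78 with 1 library left out, 7.78 without 2d replicate 1, which leaves 2d at 0), and limma 0.42, 2.01 and 0.10 with a pseudocount of 1, 0.1 and 5. At 20d edgeR gave 2.66 (1.92 to 5.97, 5.97 without 2d replicate 1), and limma 0.10, 0.65 and 0.022. For PH02Gene51458, where edgeR gave 5.30 at 6d and 4.87 at 20d against a group at 0, limma gave 0.11, 0.70 and 0.025 at 6d and 0.076, 0.54 and 0.016 at 20d. PH02Gene12146 at 20d against 6d, 0.07 and not called, reversed to -0.055 by total counts, to -0.00086 and -0.038 in limma with a pseudocount of 1 and 0.1, and to -0.36, -0.22 and -0.62 without 6d replicate 3, 20d replicate 1 and 20d replicate 4, in a range of -0.62 to 0.58 with 1 library left out.

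Counts of called genes moved by over 1.5 times as follows. With limma on log2(FPKM + 5) they were 2807 of all genes, 22 of the family and 7 of the cold list at 2d, 3808, 24 and 4 at 6d, and 5221, 27 and 5 at 20d, against 7762, 42 and 11, 9579, 43 and 10, and 10969, 49 and 8. Without a filter they were 11961 at 2d over all genes, 67, 75 and 84 in the family and 18, 16 and 15 in the cold list at 2d, 6d and 20d. With a minimum of 5 FPKM, which tests fewer genes, they were 3922, 5132 and 6237 over all genes, 20, 24 and 25 in the family, 22 (2d) and 25 (20d) in the jasmonate list and 7 (2d) in the cold list. Total-count scaling moved the share of higher calls among all called genes to 28.5% at 2d and 31.0% at 20d, against 41.97% and 44.3%.

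The replicate numbers did not pair the libraries: deviations of same-numbered libraries correlated at -0.188 to 0.101, over 0.1 in 2 of 24 pairs, and 2 of 24 correlated best with their own number. With the number as a replicate block 7758 genes were called at 2d, and PH02Gene12145 was called at 20d against 6d, with an edgeR adjusted p of 0.00793.

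The genes most like each member depended on the measure. With Spearman's correlation 0 of the 5 named were shared for either gene, and with log2(FPKM + 0.1) 0 for PH02Gene51458 and 1 for PH02Gene12145. With 1 library left out, 1 to 5 were shared for PH02Gene51458 (1 without 0d replicate 2) and 4 to 5 for PH02Gene12145. The ratio of the genes at 0d was 1.72 in counts, which are not per length. Leaving out libraries for likeness, the ratio in counts, ratios of mean FPKM and 1 count per fragment were chosen after seeing the data. The cuts of 10 FPKM at 0d and 1% of that level were not planned beforehand either. Where no cause is named, the cause was not tested.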
